A study of Mus musculus with 30 samples.

Results

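Indoxyl sulphate (IS) and oxidised low-density lipoprotein (oxLDL) were compared with each other, using the 5 libraries of 3T3-L1 cells given IS and the 5 given oxLDL, both without the peptide pNaKtide. These are 10 of the 30 libraries of the series, taken by their labels, and control libraries enter no fold change or test below other than 1 alternative, a model of all 30 libraries. The series holds 6 groups of 5 libraries: control cells, and cells given pNaKtide, IS, IS + pNaKtide, oxLDL or oxLDL + pNaKtide. Doses were 100 µM IS, 50 µg/mL oxLDL and 0.7 µM pNaKtide, an inhibitor of the signaling that runs through the Na,K-ATPase and Src. 3T3-L1 is a single clonal line of mouse embryonic preadipocytes that turns into adipocytes in culture. All groups, controls too, were kept in an adipogenic medium with insulin, dexamethasone, isobutylmethylxanthine and indomethacin, so that effects of either agent outside that medium were not measured. The labels give 5 days of treatment and the methods 2 days at intervals of 24 h. Where the labels describe how RNA was extracted they name adipose tissue, although they give 3T3 cells as the source. Whether the 5 libraries of a group came from separate cultures is not given in the sources used here, so the p-values measure the spread between these libraries. The question is whether a uremic toxin and an oxidised lipoprotein leave different transcriptomes in adipocytes.

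IS is a protein-bound uremic toxin that the liver makes from indole, a product of tryptophan breakdown by gut bacteria, and it is a ligand of the aryl hydrocarbon receptor. OxLDL enters cells through scavenger receptors and delivers cholesterol and oxidised lipids. Cells sense membrane cholesterol in the endoplasmic reticulum (ER): when it is low, the transcription factor SREBP2 turns on the enzymes of sterol synthesis. When proteins fold poorly in the ER, ATF6 and XBP1 turn on chaperones in the unfolded protein response.

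The 10 libraries held 7903355 to 15159877 reads counted on genes. Values below, apart from summed marker levels, are TMM-normalised CPM (read counts scaled to the same library size). A fold change is IS over oxLDL, so that a positive log2 value means higher with IS. IS replicate 4 stood apart from the other 9 libraries. On the first principal component of log2 CPM, which held 66.0% of the variance, it lay at 56.3, and the others lay between -20.1 and 10.1. In IS replicate 4 a gene's deviation from the mean of the 30 libraries increased with its GC content (Spearman's rho 0.55 across genes), while rho was between -0.62 and -0.47 in the other IS libraries and between -0.63 and -0.42 with oxLDL. Its part in each result was measured by leaving it out, and values are given with and without it where it decides a call.

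**Figure D1:**
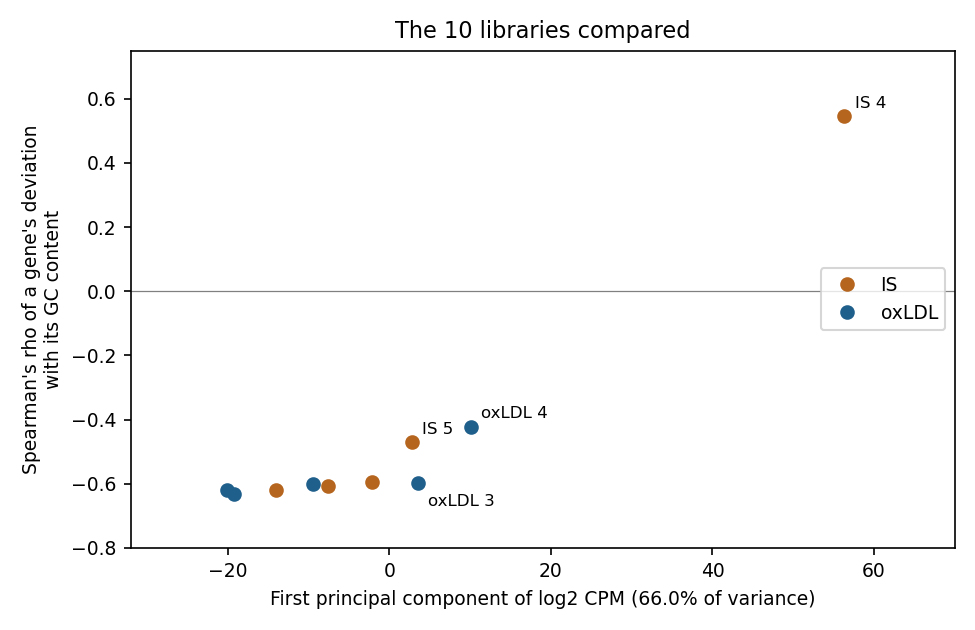
Each point is 1 of the 10 libraries, with its first principal component of log2 CPM on the x axis and Spearman's rho between gene deviation and GC content on the y axis. IS replicate 4 lies at 56.3 and 0.55, away from the 4 other IS libraries, which lie among the 5 oxLDL libraries.

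With all 10 libraries, no difference between IS and oxLDL passed the test. Of 18027 genes tested, edgeR's quasi-likelihood test called 0 at a Benjamini-Hochberg (BH) adjusted p of 0.1 (0%), and 1003 genes (5.56%) had an unadjusted p under 0.05, 481 of them higher (2.67%) and 522 lower with IS (2.9%). The smallest adjusted p was 0.215, for Rasd1. DESeq2 called 47 genes (0.261%), 16 higher (0.0888%) and 31 lower with IS (0.172%), and voom with library weights called 146 (0.81%), 45 higher (0.25%) and 101 lower (0.56%). Without IS replicate 4, edgeR called 12 of 17868 genes (0.0672%), 4 higher (0.0224%) and 8 lower (0.0448%), and 1143 (6.4%) had an unadjusted p under 0.05. There the common biological coefficient of variation was 8.27% in place of 13.5%.

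The intervals show what size of difference these libraries could hold. Among the 12770 genes whose mean log2 CPM was 1 or more, the median half-width of the 95% interval was 0.25 on the log2 scale, and 98.6% had a half-width under a 1.5-fold change. Fold changes ran from -1.01 to 0.84, with a median size of 0.11, and 1 gene (0.00783%) was past 1 in size. With IS replicate 4 left out the median size was 0.066, the values ran from -1.58 to 0.86, and 2 genes (0.0157%) were past 1. In 139 of these genes (1.09%) every IS library was above every oxLDL library, and in 107 (0.838%) every IS library was below. Over all genes tested these counts were 152 (0.843%) and 137 (0.76%).

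The genes that passed without IS replicate 4 were Lss, Tm7sf2, Acss2 and Sptlc3, higher with IS, and Rasd1, Bcar3, Adamts5, Col15a1, Itga6, Sdf2l1, Dgat2 and Prelp, lower with IS. DESeq2 on all 10 libraries called 11 of these 12, which made up 23.4% of its 47 genes. Voom with library weights called all 12, and it gave IS replicate 4 a weight of 0.13 beside 0.62 to 2.07 in the others. In 10 of the 12 the groups did not overlap with IS replicate 4 included, the exceptions being Dgat2 and Prelp. Of all genes tested, 0.843% had every IS library above and 0.76% every IS library below. The 12 were picked on libraries that also enter these comparisons, so neither agreement nor separation is independent of that choice.

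Of the 4 genes that were higher with IS and passed without IS replicate 4, Lss and Tm7sf2 are in the cholesterol synthesis list, Acss2 is in that of fatty acid synthesis and Sptlc3 is in no list. Lss (chr10:76531588-76557138, + strand, GRCm38), the cyclase that makes lanosterol, was at 197, 198, 189, 206 and 169 CPM in IS replicates 1 to 5 and at 148, 149, 154, 145 and 145 with oxLDL. All 5 IS libraries were above all 5 oxLDL libraries, by 0.37 ± 0.07 (log2, SE). Its BH-adjusted p in edgeR was 0.426, and 0.0409 without IS replicate 4, between 2.79e-05 and 0.965 over 28 alternatives.

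Tm7sf2 (chr19:6062821-6068373, - strand), a sterol reductase of the same pathway, was at 16.7, 19.9, 19.4, 28.6 and 17.6 CPM with IS and at 12.1, 11.7, 14.6, 14 and 11.4 with oxLDL. The groups did not overlap, and IS replicate 4 was the highest library. The log2 fold change was 0.68 ± 0.14, and 0.55 without that library, with an adjusted p in edgeR of 0.463 and 0.0409 (0.000632 to 0.965 over its alternatives).

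The promoters of both genes are shown because 17 of the 19 members of the cholesterol synthesis list with an entry in the RefSeq promoter table (89.5%) hold a CCAAT box, the site of NF-Y, a known partner of SREBP2. The motif searched was CCAAT on either strand within 250 bases before to 50 bases after the RefSeq start, and 41.1% of all 27025 gene symbols in that table hold it. The box is not particular to this list, since 30 of 36 promoters of the ER list described below (83.3%), whose median log2 fold change had the opposite sign, also hold it. The sequences are the 250 bases before the start in GRCm38.p6, 5′ to 3′ on the strand of the gene, chr10:76531355-76531604 on the + strand for Lss and chr19:6067851-6068100 on the - strand for Tm7sf2, with capitals for the CCAAT box, here read on the opposite strand.
Lss: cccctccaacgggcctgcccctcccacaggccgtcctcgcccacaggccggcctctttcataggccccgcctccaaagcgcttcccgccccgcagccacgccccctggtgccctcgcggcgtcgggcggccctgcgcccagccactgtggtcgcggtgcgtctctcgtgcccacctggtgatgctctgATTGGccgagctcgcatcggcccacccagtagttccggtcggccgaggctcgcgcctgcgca
Tm7sf2: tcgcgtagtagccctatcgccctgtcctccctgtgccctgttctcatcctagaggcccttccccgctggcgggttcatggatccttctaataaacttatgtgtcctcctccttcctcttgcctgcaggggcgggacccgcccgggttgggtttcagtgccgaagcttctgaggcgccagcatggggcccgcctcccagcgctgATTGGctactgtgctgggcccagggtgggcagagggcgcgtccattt
The box begins 62 bases before the start of Lss and 47 bases before that of Tm7sf2. The sterol element TCACNCCAC was present in 1 of the 19 promoters (5.26%), that of Hmgcs1, and in 1.44% of all symbols. A match of letters is a description of these windows and says nothing of binding.

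The cholesterol synthesis list held 26 tested genes. With IS, 10 of them (38.5%) were higher and 0 lower at an unadjusted p under 0.05, beside 2.67% and 2.9% of all genes. The median log2 fold change was 0.14 beside -0.003 over all genes tested. Without IS replicate 4, 13 (50.0%) were higher and 0 lower beside 3.26% and 3.14% of all genes, the median was 0.19, and Lss and Tm7sf2 passed the adjusted threshold. In 6 of the 26 genes every IS library was above every oxLDL library (0.843% of all genes tested), and in 0 below (0.76% of all genes).

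The members ran along the pathway. Of the mevalonate kinases, Pmvk had a log2 fold change of 0.38 and Mvk of 0.46, and the decarboxylase Mvd was at 65.5 to 113 CPM with IS and 47.5 to 61.6 with oxLDL. IS replicate 4 was the highest IS library for all 3, and without it the values were 0.31, 0.28 and 0.28. Dhcr7, which makes cholesterol from its last precursor, was at 176 to 268 CPM with IS and 149 to 174 with oxLDL. Mvd and Dhcr7 did not overlap between groups. Nsdhl, a demethylating enzyme further up, had a log2 fold change of 0.33.

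Insig1, which holds SREBP2 in the ER and is itself a target of it, was at 384, 375, 346, 202 and 307 CPM with IS and at 316, 322, 299, 278 and 321 with oxLDL. Its groups overlapped, with IS replicate 4 the lowest library and IS replicates 1 to 3 above every oxLDL library. The 95% interval of the log2 fold change was -0.24 to 0.39 with all libraries and 0.05 to 0.37 without IS replicate 4.

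Control cells, on a scale set over all 30 libraries, held Lss at 169 to 223 CPM, beside 160 to 192 with IS and 136 to 144 with oxLDL. The oxLDL libraries thus lay below every control, and the range of the IS libraries overlapped that of the controls and reached below it. Tm7sf2 was at 16.4 to 25.8 CPM in controls, 15.7 to 26.7 with IS and 10.7 to 13.7 with oxLDL, where again the oxLDL libraries lay below every control and the other ranges overlapped. The control libraries differed in their trend over GC content (rho -0.40 to 0.65), and no test was made against them here.

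Acss2 (chr2:155517948-155585724, + strand), which makes acetyl-CoA from acetate, was at 91.5, 94.4, 96.4, 115 and 84.2 CPM with IS and at 66.0, 67.2, 79.6, 74.2 and 64.0 with oxLDL. Every IS library was above every oxLDL library, by 0.46 ± 0.09 (log2, SE), and the adjusted p in edgeR was 0.463, and 0.0612 without IS replicate 4 (0.000938 to 0.965 over its alternatives). Acly, which makes cytosolic acetyl-CoA from citrate, was at 337 to 376 CPM with IS and 292 to 320 with oxLDL, with no overlap and a log2 fold change of 0.19 that passed in 2 of 28 alternatives.

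Sptlc3 (chr2:139493913-139637674, + strand), a subunit of the enzyme that begins sphingolipid synthesis, was at 17.1, 18.1, 16.6, 20.5 and 14.4 CPM with IS and at 10.4, 9.74, 12.7, 8.93 and 11.8 with oxLDL. The groups did not overlap, and the log2 fold change of 0.70 ± 0.12 had the smallest p of the genes higher with IS. Its adjusted p in edgeR was 0.323, and 0.0409 without IS replicate 4 (0.000194 to 0.965 over its alternatives). Controls held 8.12 to 12.6 CPM on the 30-library scale, so that here the IS libraries, at 13.6 to 19.2, lay above controls and the oxLDL libraries, at 8.54 to 12.0, among them.

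**Figure D2:**
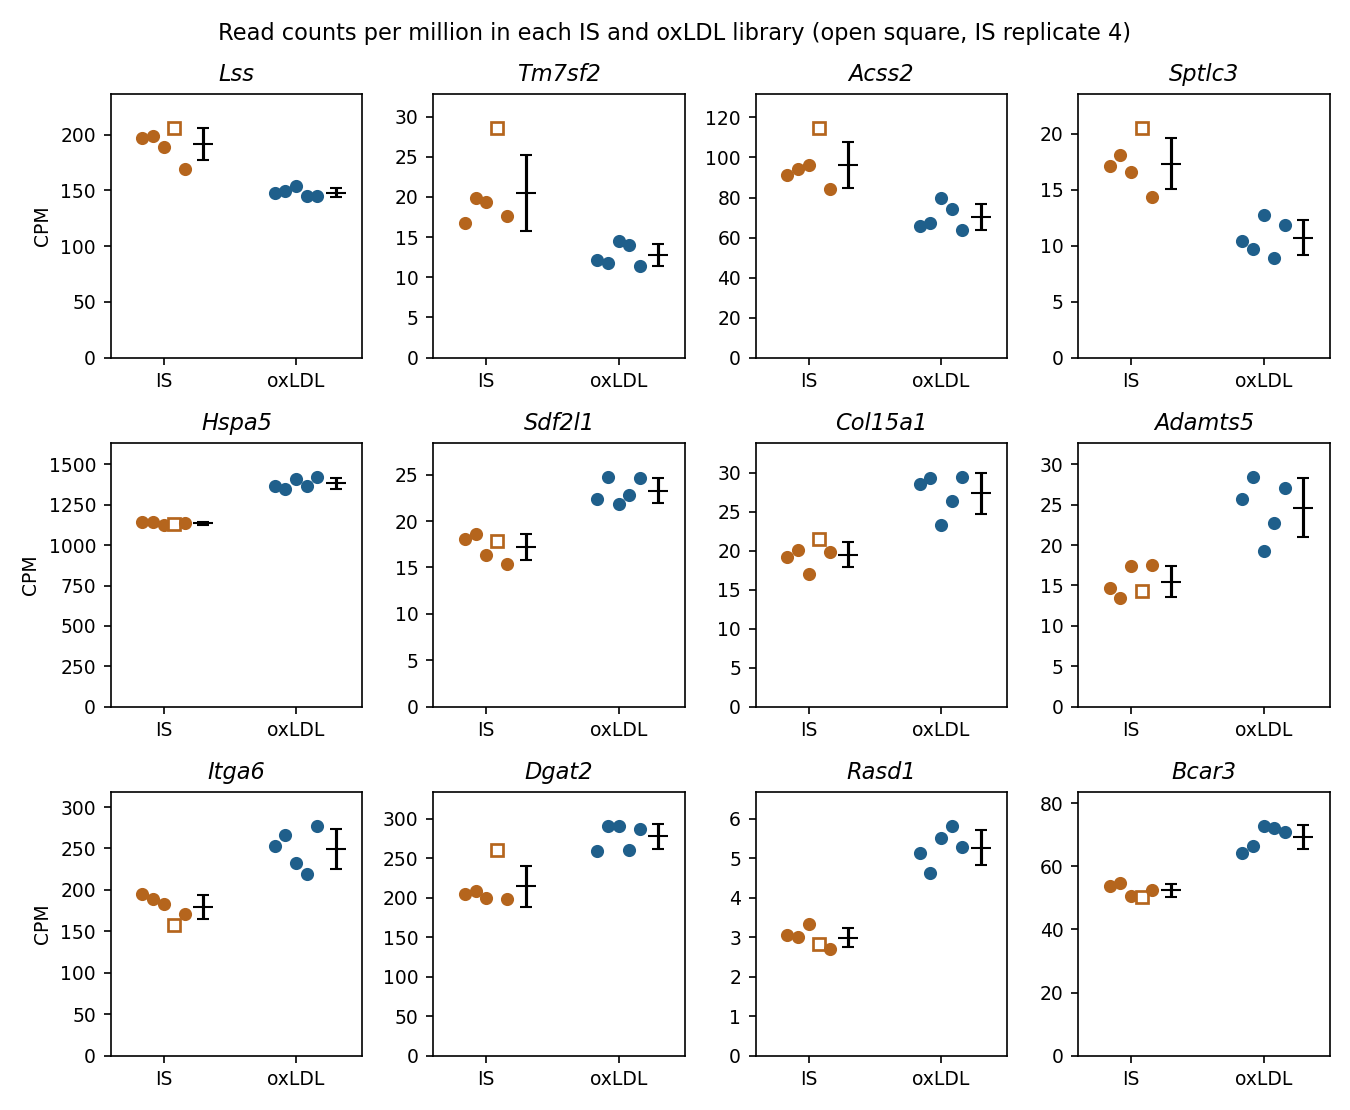
CPM (y axis, from 0) of 12 genes in each IS and oxLDL library, with the mean and SD of 5 libraries beside the points and IS replicate 4 as an open square. The groups do not overlap in 11 panels, and in that of Dgat2 the overlap comes from IS replicate 4 alone, at 260.0 CPM.

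Of 40 listed genes of the ER and its stress response, 14 were lower with IS than with oxLDL at an unadjusted p under 0.05 and 1 was higher, beside 2.9% and 2.67% of all genes. Hspa5 (chr2:34771970-34777547, + strand), which encodes BiP, the main chaperone of the ER, which binds unfolded proteins, was at 1144, 1145, 1124, 1133 and 1136 CPM with IS and at 1368, 1345, 1412, 1368 and 1422 with oxLDL. The 5 IS libraries, IS replicate 4 included, lay close together and all below the oxLDL libraries. The log2 fold change was -0.28 ± 0.08, with an adjusted p of 0.733 in edgeR and 7.83e-12 in DESeq2 (7.83e-12 to 0.965 over 28 alternatives). The 95% interval in edgeR was -0.45 to -0.12.

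Sdf2l1 (chr16:17130138-17132383, - strand), a partner of BiP in ER quality control, was at 18.1, 18.6, 16.3, 17.8 and 15.3 CPM with IS and at 22.4, 24.8, 21.8, 22.8 and 24.6 with oxLDL. All IS libraries were below all oxLDL libraries, by -0.44 ± 0.08 (log2, SE). Its adjusted p in edgeR was 0.401, and 0.0669 without IS replicate 4 (0.00133 to 0.965 over its alternatives).

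Other members of the list were also lower with IS in every library. Hsp90b1, the ER form of HSP90, was at 441 to 598 CPM with IS and 661 to 821 with oxLDL, and Pdia4, a disulfide isomerase, at 268 to 310 and 340 to 364. Hyou1, a nucleotide exchange factor of BiP, was at 137 to 148 CPM with IS and 155 to 171 with oxLDL. Canx, the lectin chaperone calnexin, and Syvn1, the ubiquitin ligase of ER-associated degradation, did not overlap either, with log2 fold changes of -0.26 and -0.16. In Hsp90b1 and Canx, IS replicate 4 was the lowest library by far, and without it their log2 fold changes were -0.33 and -0.16.

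The 14 lower genes made up 35.0% of the ER chaperone and unfolded protein response list, beside 2.9% of all genes, and the list's median log2 fold change was -0.14. Without IS replicate 4, 17 (42.5%) were lower and 1 higher, the median was again -0.14, and Sdf2l1 passed the adjusted threshold. In 9 genes every IS library was below every oxLDL library, beside 0.76% of all genes tested. The 1 gene with all IS libraries above was Mthfd2, a mitochondrial folate enzyme that ATF4 turns on and that the list holds for that arm of the response, at 163 to 169 CPM with IS and 145 to 154 with oxLDL. The list's median deviation from the 10-library mean was -0.13 to -0.03 log2 in the IS libraries and 0.03 to 0.11 in the oxLDL libraries, with no overlap.

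**Figure D3:**
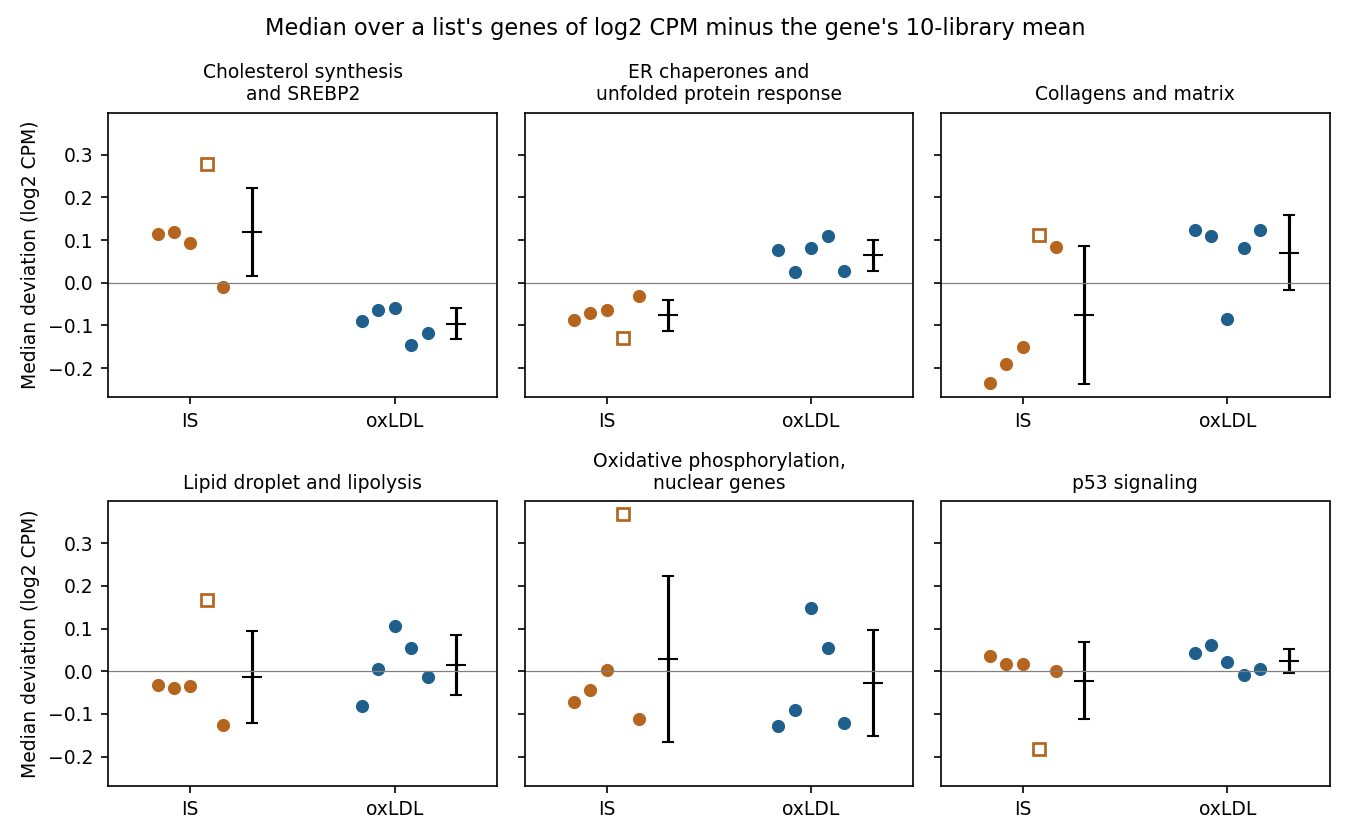
Median over a list's genes of log2 CPM minus the gene's mean over the 10 libraries (y axis, log2), for 6 lists, with the mean and SD of 5 libraries and IS replicate 4 as an open square. The groups do not overlap for cholesterol synthesis (IS -0.01 to 0.28, oxLDL -0.15 to -0.06) and ER chaperones (IS -0.13 to -0.03, oxLDL 0.03 to 0.11), and they overlap in the other 4 lists.

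Chaperone promoters carry the ER stress element, a CCAAT box and CCACG with 9 bases between them, bound by NF-Y together with ATF6 or XBP1. Searched on both strands as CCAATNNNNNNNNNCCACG, it lay in 9 of the 36 list members found in the RefSeq promoter table (25%), against 0.137% of all 27025 gene symbols and 0 of the 39 members of the matrix list below. Every copy also holds a CCAAT box. The 250 bases before the start of the 4 genes above that hold the element are shown, from GRCm38.p6 and 5′ to 3′ on the strand of the gene, with its fixed bases in capitals: chr2:34771840-34772089 (+ strand) for Hspa5, chr10:86705445-86705694 (- strand) for Hsp90b1, chr11:50325674-50325923 (- strand) for Canx and chr19:6046326-6046575 (+ strand) for Syvn1.
Hspa5: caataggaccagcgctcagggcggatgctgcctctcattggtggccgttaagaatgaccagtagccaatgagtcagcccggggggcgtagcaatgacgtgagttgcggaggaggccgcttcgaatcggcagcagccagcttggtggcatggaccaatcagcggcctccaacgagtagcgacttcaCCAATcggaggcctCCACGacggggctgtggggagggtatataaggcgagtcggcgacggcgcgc
Hsp90b1: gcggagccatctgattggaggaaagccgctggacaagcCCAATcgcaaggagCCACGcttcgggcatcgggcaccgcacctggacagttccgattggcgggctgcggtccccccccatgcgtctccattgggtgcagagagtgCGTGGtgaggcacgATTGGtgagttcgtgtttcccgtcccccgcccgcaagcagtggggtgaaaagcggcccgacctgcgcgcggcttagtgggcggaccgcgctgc
Canx: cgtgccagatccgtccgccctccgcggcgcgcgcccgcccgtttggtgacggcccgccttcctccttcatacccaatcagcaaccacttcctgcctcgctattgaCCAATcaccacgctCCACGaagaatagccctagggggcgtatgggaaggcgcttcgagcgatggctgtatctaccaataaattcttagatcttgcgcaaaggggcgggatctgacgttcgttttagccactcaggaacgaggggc
Syvn1: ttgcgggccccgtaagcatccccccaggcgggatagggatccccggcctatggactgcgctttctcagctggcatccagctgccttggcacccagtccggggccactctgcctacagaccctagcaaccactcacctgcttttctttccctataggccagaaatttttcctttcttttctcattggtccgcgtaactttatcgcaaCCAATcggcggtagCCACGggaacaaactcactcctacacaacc
The element begins 65 bases before the start of Hspa5, 145 bases before that of Canx and 44 bases before that of Syvn1. Hsp90b1 has it at 212 bases and, on the opposite strand, at 107 bases before the start. Of the 8 tested genes with the element, 4 (50%) were lower with IS at an unadjusted p under 0.05. Of the 27 tested genes without it in the window, 9 (33.3%) were lower. The share of all genes was 2.9%, and the difference between these sets was not tested.

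Relative to controls, the position of the chaperones differed from gene to gene. On the 30-library scale Hspa5 was at 1199 to 1335 CPM in controls, with the IS libraries below them at 1058 to 1076 and the oxLDL libraries at 1250 to 1335. Hsp90b1 was at 463 to 617 CPM in controls, 411 to 562 with IS and 632 to 771 with oxLDL, so that here the oxLDL libraries lay above. Sdf2l1 was at 14.9 to 21.6 CPM in controls, 14.5 to 17.5 with IS and 20.5 to 23.1 with oxLDL.

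Of 56 listed genes of the extracellular matrix, 15 were lower with IS at an unadjusted p under 0.05 and 1 was higher, beside 2.9% and 2.67% of all genes. Col15a1 (chr4:47208161-47313167, + strand), a collagen of the basement membrane zone, was at 19.1, 20.1, 17.0, 21.4 and 19.8 CPM with IS and at 28.6, 29.3, 23.2, 26.3 and 29.4 with oxLDL. The groups did not overlap. The log2 fold change was -0.50 ± 0.09, with an adjusted p in edgeR of 0.384, and of 0.0409 without IS replicate 4 (2.75e-05 to 0.965 over its alternatives).

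Itga6 (chr2:71745616-71858416, + strand), a subunit of laminin-binding integrins, was at 195, 189, 183, 158 and 171 CPM with IS and at 253, 267, 232, 219 and 277 with oxLDL. All IS libraries were below all oxLDL libraries, by -0.48 ± 0.09 (log2, SE). Adamts5 and Prelp, described next, are not in the matrix list. Adamts5 (chr16:85856173-85901828, - strand), a protease that cleaves aggrecan and versican, was at 14.7, 13.4, 17.4, 14.3 and 17.6 CPM with IS and at 25.6, 28.4, 19.3, 22.8 and 27.0 with oxLDL, a log2 difference of -0.67 ± 0.12 without overlap. Their adjusted p in edgeR was 0.384 for Itga6 and 0.323 for Adamts5, and 0.0409 for both without IS replicate 4, with ranges over their alternatives of 2.75e-05 to 0.965 and 0.000143 to 0.965.

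Prelp (chr1:133910304-133921414, - strand), a leucine-rich proteoglycan of basement membranes, was at 82.5, 83.4, 82.8, 125 and 80.2 CPM with IS and at 104, 101, 107, 102 and 101 with oxLDL. IS replicate 4 was above every oxLDL library, and the 4 other IS libraries were below. The log2 fold change was -0.18 with all libraries, with an interval of -0.43 to 0.06 and an adjusted p of 0.789 in edgeR, and -0.31 without IS replicate 4, with an adjusted p of 0.0409 (2.89e-06 to 0.965 over its alternatives).

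The 15 lower genes made up 26.8% of the collagen and matrix list, beside 2.9% of all genes, and the list's median log2 fold change was -0.13. Without IS replicate 4, 23 (41.1%) were lower and 0 higher, beside 3.14% and 3.26% of all genes, with a median of -0.20, and Col15a1 and Itga6 passed the adjusted threshold. Postn, a matricellular protein, was at 361 to 482 CPM with IS and 464 to 651 with oxLDL, with 1 IS library, replicate 5, inside the oxLDL range. Col3a1, a fibrillar collagen, was at 1729, 1770, 1870, 2339 and 2253 CPM with IS and at 2539, 2422, 2171, 2425 and 2515 with oxLDL. IS replicates 4 and 5 were within its oxLDL range. The list's median deviation was likewise 0.11 and 0.08 log2 in IS replicates 4 and 5 and -0.24 to -0.15 in the others. With oxLDL it was -0.08 to 0.12, so that the 2 groups overlapped.

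Of 11 preadipocyte and fibroblast markers, which include Col3a1 and the proteoglycan Dcn, 4 (36.4%) were lower and 0 higher with IS at an unadjusted p under 0.05, beside 2.9% and 2.67% of all genes, and 6 (54.5%) were lower without IS replicate 4, beside 3.14%. Their summed level, in CPM scaled by library size alone, was 3249 to 4544 with IS and 3923 to 4865 with oxLDL. Fewer cells of a type and less RNA per cell cannot be told apart in these bulk libraries, and the part of the share of undifferentiated cells in the matrix result was not tested. Of 25 tested regulators of adipogenesis, 9 had a positive and 16 a negative log2 fold change, and 1 (4%) was higher and 3 (12%) lower at an unadjusted p under 0.05. Zfp423, a factor that commits cells to the adipocyte lineage, was at 17.5 to 22.3 CPM with IS and 22.7 to 26.2 with oxLDL, and Ebf2, a factor of the same lineage, at 7.05 to 12.9 and 11.3 to 19. The summed level of 12 adipocyte markers, also scaled by library size alone, was 14857 to 17606 CPM with IS and 16722 to 19752 with oxLDL. Of these, 1 marker (8.33%) was lower at an unadjusted p under 0.05 and 0 higher. Leaving out IS replicate 4, 3 of these markers (25%) were lower and 1 (8.33%) higher, and with the offsets for GC content and gene length described next, on all 10 libraries, 4 (33.3%) were lower and 0 higher, beside 3.92% and 3.27% of all genes. That fit called 6 of all genes at the adjusted threshold (0.0333%), all of them lower with IS.

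The 3 lists were also read with IS replicate 4 left out and with offsets that take out how far each library's counts follow GC content and gene length, a fit in which 3.77% of all genes were higher and 4.75% lower at an unadjusted p under 0.05. Of the cholesterol synthesis genes 15 (57.7%) were then higher and 0 lower, of the ER genes 1 higher and 24 (60.0%) lower, and of the matrix genes 0 higher and 28 (50.0%) lower. The medians were 0.18, -0.16 and -0.20. At the adjusted threshold 8, 8 and 4 genes of these lists passed in that direction, among 118 of all genes (0.66%), 40 higher (0.224%) and 78 lower (0.437%). With the offsets on all 10 libraries, the cholesterol list had 15 genes (57.7%) higher and 0 lower at an unadjusted p under 0.05. The ER list had 1 higher and 17 (42.5%) lower, and the matrix list 2 higher and 13 (23.2%) lower. The shares of all genes were 3.27% higher and 3.92% lower. In that fit 0, 0 and 2 members passed the adjusted threshold.

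**Figure D4:**
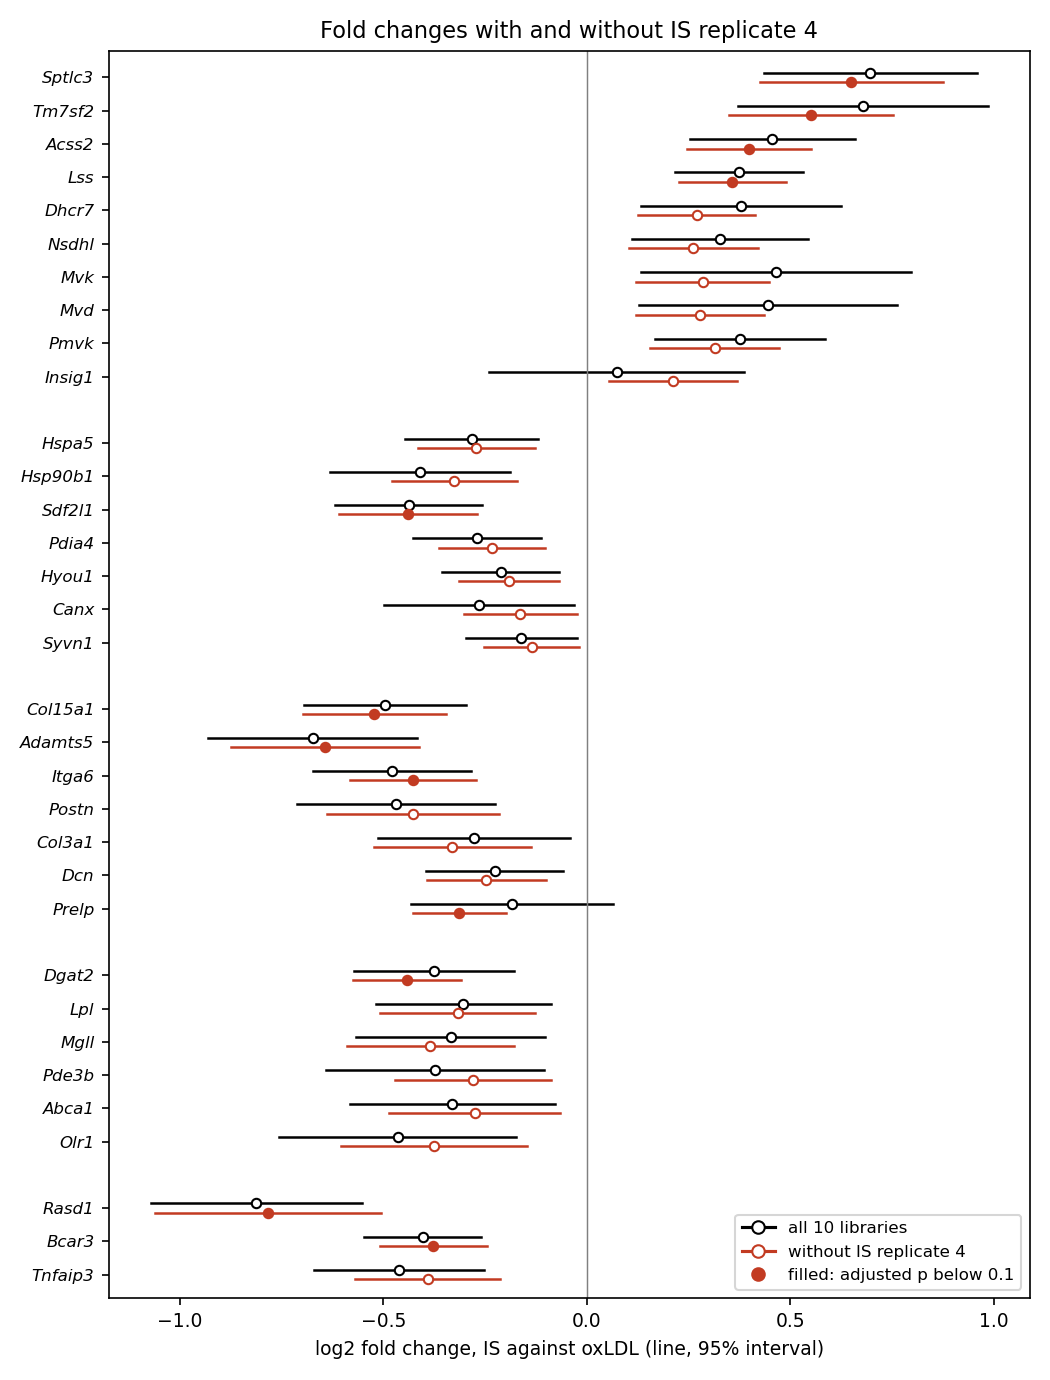
Log2 fold change of IS against oxLDL (x axis) with its 95% interval for named genes, in groups from top to bottom: sterol and lipid synthesis, ER chaperones, matrix, lipid storage and uptake, and others. Black symbols use all 10 libraries and red ones leave out IS replicate 4, filled where the adjusted p was under 0.1, as in 12 genes drawn red and 0 drawn black.

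Of the genes of lipid storage, Dgat2 passed the adjusted threshold without IS replicate 4. Dgat2 (chr7:99153658-99182719, - strand), which makes triglyceride from diacylglycerol, was at 205, 209, 199, 260.0 and 198 CPM with IS and at 259, 290.2, 291, 261 and 287 with oxLDL. IS replicate 4 was within the oxLDL range and the 4 other IS libraries below it. The log2 fold change was -0.37 ± 0.09, and -0.44 without IS replicate 4, with an adjusted p in edgeR of 0.583 and 0.0358 (8.01e-11 to 0.965 over its alternatives). Controls held 235 to 303 CPM on the 30-library scale, beside 187 to 243 with IS and 243 to 273 with oxLDL.

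Lpl, the lipase that frees fatty acids from lipoproteins at the cell surface, was at 3622, 3470, 3640, 3784 and 3214 CPM with IS and at 3973, 4627, 4812, 3915 and 4557 with oxLDL. Its groups did not overlap, with a log2 fold change of -0.30 that passed in 4 of 28 alternatives. Mgll, which cleaves monoglycerides, and Pde3b, which breaks down cAMP and so restrains lipolysis, had log2 fold changes of -0.33 and -0.37 with overlapping groups. Adiponectin (Adipoq) had an interval of -0.48 to 0.02, and Pparg, the main regulator of adipocytes, of -0.23 to 0.10. Slc27a1, a fatty acid transporter, was higher with IS in every library, at 74.8 to 92.1 CPM against 57.8 to 68.2.

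Over all genes tested, 2.67% were higher and 2.9% lower at an unadjusted p under 0.05. For fatty acid and triglyceride synthesis, 5 of 29 tested genes (17.2%) were higher and 2 (6.9%) lower with IS at that level, with Acss2 and Acly among the first and Dgat2 among the second, and the median log2 fold change was 0.04, which turned to -0.02 without IS replicate 4 and -0.002 with the offsets. For lipid droplets and lipolysis 0 of 29 were higher and 4 (13.8%) lower, with a median of -0.13 and 19 of the 29 values negative. That median was -0.09 without IS replicate 4, with 23 of 27 values negative. Of 43 genes of fatty acid uptake and oxidation, 2 (4.65%) were higher and 3 (6.98%) lower, with a median of -0.008.

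Genes through which each agent is known to enter or be sensed were read next. Olr1, the oxLDL receptor LOX-1, was at 107, 103, 91.8, 69.6 and 79.3 CPM with IS and at 120.4, 148, 114, 97.6 and 141 with oxLDL. Both groups varied, and only oxLDL replicate 4 lay inside the IS range. The log2 fold change of -0.46 (interval -0.76 to -0.17) passed in 4 of 28 alternatives. Abca1, the exporter of cholesterol that LXR turns on, had a log2 fold change of -0.33 with overlapping groups. Of 19 scavenger and lipoprotein receptors, 1 was higher and 1 lower (5.26% each) at an unadjusted p under 0.05, and the same counts held for 17 genes of cholesterol efflux, beside 2.67% higher and 2.9% lower of all genes, so that these counts are near the background.

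Of 14 tested genes of the aryl hydrocarbon receptor and its targets, 0 were higher with IS at an unadjusted p under 0.05 and 1 (7.14%), the receptor Ahr, was lower, at 0.851 to 1.21 CPM with IS and 0.919 to 1.76 with oxLDL. Cyp1b1, a target well expressed here, was at 341, 323, 351, 303 and 353 CPM with IS and at 329, 344, 293, 295 and 335 with oxLDL. The groups overlapped, and the interval of the log2 fold change was -0.11 to 0.24. Of 11 genes for transport of organic anions, 2 (18.2%) were higher with IS and 0 lower. The shares of all genes were 2.67% higher and 2.9% lower. Slco2b1, an uptake transporter, was among them at a low level, 0.644 to 1.13 CPM against 0.263 to 0.486 with oxLDL.

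Of 41 tested inflammatory genes, 5 (12.2%) were lower with IS at an unadjusted p under 0.05 and 0 higher, beside 2.9% and 2.67% of all genes. Without IS replicate 4, 8 (19.5%) were lower and 0 higher, beside 3.14% and 3.26%. The list's median log2 fold change was -0.02, and -0.003 without that library. Tnfaip3, the inhibitor of NF-kappaB known as A20, was at 11.7, 12.0, 11.9, 9.26 and 11.3 CPM with IS and at 14.3, 16.2, 17.3, 14.7 and 15.4 with oxLDL. The groups did not overlap, and the log2 fold change was -0.46 ± 0.10. Of the chemokines, Ccl2 was at 0.604 to 1.63 CPM with IS and 1.77 to 2.35 with oxLDL, Cxcl1 at 0.403 to 0.993 and 1.05 to 1.70, and Ccl7 at 1.51 to 2.90 and 2.43 to 4.22. These 3 did not pass the adjusted threshold in any alternative.

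Of 50 antioxidant genes, 5 (10.0%) were higher and 0 lower with IS at an unadjusted p under 0.05, beside 2.67% and 2.9% of all genes, with a median log2 fold change of 0.12 that was 0.02 without IS replicate 4. Gpx8, a peroxidase of the ER, was among them at 117 to 141 CPM with IS and 103 to 114 with oxLDL. For the Na,K-ATPase and Src family, through which pNaKtide acts, 2 of 18 genes (11.1%) were lower and 0 higher, and without IS replicate 4, 3 (16.7%) were lower, beside 3.14% of all genes. Src itself was at 24.0 to 27.2 CPM with IS and 26.4 to 33.0 with oxLDL, with a log2 fold change of -0.21 ± 0.08.

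The gene with the smallest p of all was Rasd1 (chr11:59963181-59964944, - strand), a small G protein that glucocorticoids turn on. It was at 3.07, 3.00, 3.33, 2.82 and 2.70 CPM with IS and at 5.13, 4.61, 5.52, 5.82 and 5.27 with oxLDL. The highest IS library was below the lowest oxLDL library, and the log2 fold change was -0.81 ± 0.12. Its adjusted p in edgeR was 0.215, and 0.0409 without IS replicate 4 (0.00121 to 0.951 over 28 alternatives, of which 13 passed). Of 20 tested glucocorticoid-responsive genes, it was the 1 that was lower at an unadjusted p under 0.05 (5%), and 0 were higher. Of the 20, 3 (15%) were higher without IS replicate 4 and Rasd1 was again the 1 lower, beside 3.26% and 3.14% of all genes. Controls held 4.18 to 6.11 CPM on the 30-library scale, with the IS libraries below them at 2.56 to 3.15.

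Bcar3 (chr3:122294136-122530191, + strand), an adaptor in integrin signaling, was at 53.7, 54.8, 50.6, 50.2 and 52.3 CPM with IS and at 64.2, 66.4, 72.8, 72.1 and 70.9 with oxLDL. The groups did not overlap, and the log2 fold change was -0.40 ± 0.07 (adjusted p in edgeR 0.323, and 0.0409 without IS replicate 4, 1.68e-05 to 0.962 over its alternatives). Without overlap and also lower with IS were Pcyox1, an enzyme that degrades prenylated cysteine, at 635 to 672 CPM against 761 to 919.6, and Atp2b4, a calcium pump of the plasma membrane, at 40.3 to 47.8 against 49.6 to 67.5. Gm29397, a predicted gene, was at 4.40 to 5.61 against 6.32 to 8.45 CPM.

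Higher with IS without overlap were Vdr, the vitamin D receptor, at 20.9, 20.3, 24.9, 23.9 and 20.4 CPM against 17.0, 15.1, 16.7, 17.5 and 14.8 with oxLDL, and Arid5a, an RNA-binding protein, at 6.69 to 8.05 against 4.13 to 5.50. Rasl11a, a small GTPase, was at 3.93 to 7.52 CPM with IS and 2.64 to 3.29 with oxLDL, and Insl6, a hormone of the insulin family, at 3.93 to 4.78 and 2.64 to 3.32. The predicted gene Gm6722 was at 3.12 to 3.93 and 1.81 to 2.87 CPM. None of these 5 passed edgeR's test on the counts with or without IS replicate 4, although each passed in 2 to 7 of its alternatives.

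In the 7 pathways in which the study looks for a difference between the agents (proteasome, p53 signaling, retinol metabolism, TCA cycle, folate biosynthesis, the intestinal IgA network, and drug metabolism by other enzymes), lists of 18 to 58 tested genes had at most 2 members in either direction at an unadjusted p under 0.05, beside 2.67% of all genes higher and 2.9% lower. Their median log2 fold changes were between -0.08 and 0.07. These are lists written here and not the sets used in the study. For these pathways the study itself held experimental noise to be likelier than a true difference between the agents. With the offsets on all 10 libraries, retinol metabolism had 3 genes higher and 1 lower, and drug metabolism 2 higher and 3 lower. The shares of all genes in that fit were 3.27% higher and 3.92% lower.

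Markers of other cells were few. Their sums are in CPM scaled by library size alone. Of 10 macrophage markers, 6 were tested and Itgam, Ptprc and C1qa were at 0 in all 10 libraries, with a summed level of 10.9 to 12.8 CPM with IS and 9.22 to 13.5 with oxLDL. Endothelial markers summed to 0.208 to 0.923 and 0.253 to 0.760 CPM. Muscle markers, with Myod1 and Myog at 0, summed to 13.9 to 25.1 and 12.9 to 16.9.

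The same contrast was then read in the cells given pNaKtide, in 10 libraries that share none with those above. There edgeR called 7267 of 19338 genes (37.6%) between IS + pNaKtide and oxLDL + pNaKtide, 3775 higher (19.5%) and 3492 lower (18.1%). The trend over GC content differed between these groups without overlap, with rho of -0.53 to -0.14 in the IS + pNaKtide libraries and 0.19 to 0.63 in the oxLDL + pNaKtide libraries. With the offsets for GC content and gene length, 5357 genes (27.7%) were called, 2389 higher and 2968 lower. The difference between the contrasts without and with pNaKtide passed in 6381 genes (33%), 3204 upward and 3177 downward, and in 3818 (19.7%) with the offsets. Scaled by library size alone it passed in 1697 upward and 5214 downward, with a median over all genes of -0.25 in place of -0.04, so that directions of this difference are relative to the scaling.

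All 12 genes called without IS replicate 4 had the same sign in this contrast. Of these, 7 passed it, a count to be read beside the 37.6% of all genes. The share of all genes with the same sign in both contrasts was not counted. Lss had a log2 fold change of 0.32 ± 0.08 (adjusted p in edgeR 0.00488) and Sptlc3 of 0.50 ± 0.12 (0.00525), which with the offsets were 0.11 and 0.20 and did not pass. Col15a1 was at -0.66 ± 0.11 (0.000979) and Dgat2 at -0.64 ± 0.09 (0.000245), and with the offsets these were -0.59 and -0.44 and passed. Without the offsets, Prelp was at -0.82, Rasd1 at -0.51 and Acss2 at 0.25. The other 5 genes did not pass, and Sdf2l1 was at -0.21, and at 0.13 with the offsets.

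Elsewhere the 2 contrasts differed. Insig1 had a log2 fold change of 0.88 with pNaKtide, with 292 to 361 CPM in IS + pNaKtide and 130.4 to 248 in oxLDL + pNaKtide libraries on the 30-library scale. Its difference between the contrasts, without minus with pNaKtide, was -0.80 (adjusted p in edgeR 0.0133), and -0.73 with the offsets, which also passed. For Mvk the difference was 0.79, since its fold change was -0.32 with pNaKtide, and for Tnfaip3 it was -0.83, with a fold change of 0.38. Of the chaperones, Hspa5 was at -0.08 with pNaKtide and at -0.32 with the offsets, and its difference between the contrasts, -0.19, did not pass.

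**Figure D5:**
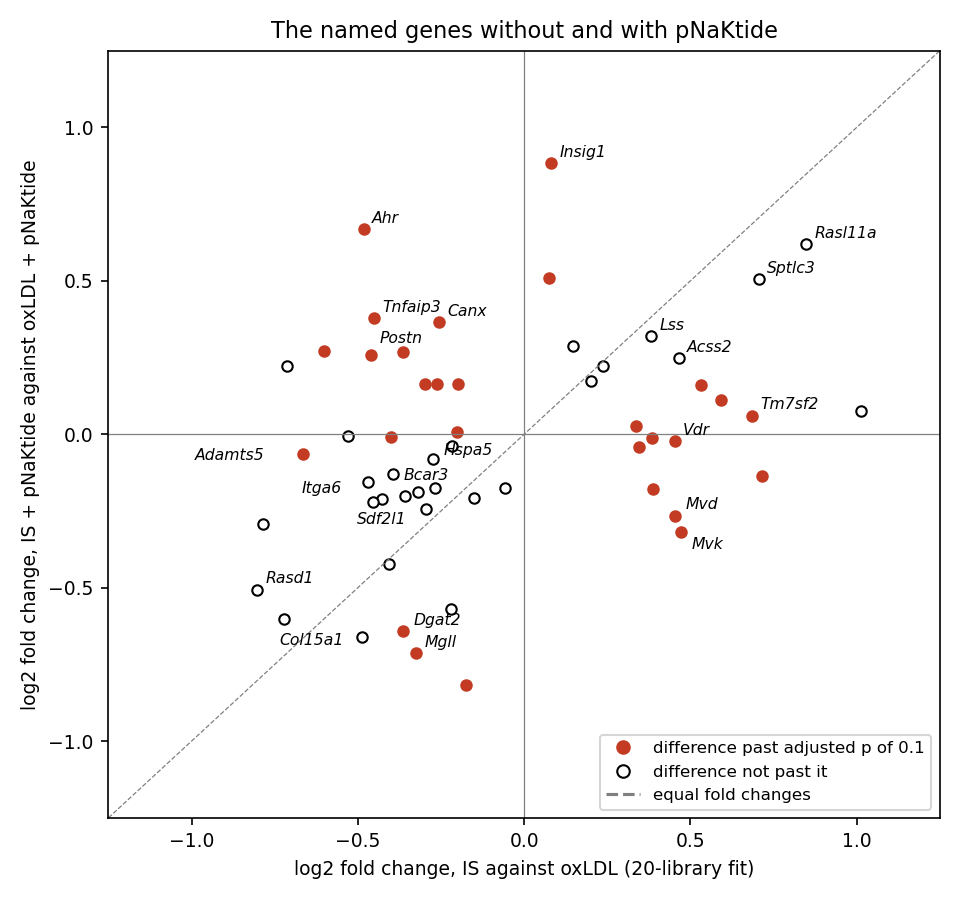
Log2 fold change of IS against oxLDL for the 56 named genes without pNaKtide (x axis) and with it (y axis), both from the fit of 20 libraries, with equal changes on the dashed line. In the 28 filled points, Insig1 and Mvk among them, the difference between the contrasts passed an adjusted p of 0.1.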

How the data were processed

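RNA of 3T3-L1 cells was measured by mRNA sequencing. The authors made the counts by trimming paired 50-base reads of stranded libraries (Trimmomatic 0.38), aligning to GRCm38 (HISAT2 2.1.0) and counting reads per gene, without normalization. The deposited FPKM values, scaled by the authors per kilobase and to depth, served 2 alternatives. Which gene annotation was counted, and whether strand was used, is not given in the sources read here. Gene positions are those of GENCODE M21, and promoters those of the RefSeq table for GRCm38.p6.

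The 54232 genes were filtered to a total above 14 counts in the 10 libraries (18027 genes), scaled by TMM and fitted with edgeR 4.0.16 (robust quasi-likelihood, 2 groups, R 4.3.3), with two-sided tests and BH adjustment at 0.1. The contrast with pNaKtide and the difference came from 1 fit of 4 groups and 20 libraries (19338 genes). No pair within a group agreed within sampling noise (lowest chi-square over its degrees of freedom 2.01). The steps were tested on simulated data that held no outlying library and no trend over GC content or gene length, unlike these libraries. Alternatives were DESeq2 1.42.0, other scalings and filters, limma 3.58.1 with library weights or on log2(FPKM + 1) and log2(FPKM + 0.1), GC content and length offsets (mgcv 1.9.3), a replicate block, all 30 libraries in the model, no robust estimation, and each library left out. Those that combine leaving out IS replicate 4 with another setting, and the offsets for the contrast with pNaKtide and for the difference between the contrasts, were added after seeing the data.

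The members, the 37 gene lists, the rules and the naming of IS replicate 4 were chosen with earlier results of these data known. Named are the 10 genes in each direction with the smallest p among those whose mean log2 CPM was 1 or more and whose groups did not overlap, the 5 in each direction without IS replicate 4, and key genes and up to 3 members in each direction of a list, some left out. Prelp, Pdia4, Hyou1, Canx, Syvn1, Mvk, Mvd, Dhcr7 and Nsdhl were chosen after their values were seen. Some key genes of the lists are not reported here.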

Additional observations from a re-analysis of the deposited data

Results flagged for a closer look

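Named genes and library measures were examined for a library far from the rest of its group, in 120 groups of 5. Some genes were named from the fit without IS replicate 4 or after their values were seen, so a chance rate is no fair reference for them. There were 17 cases of such a library, where chance alone gives about 1 in 20 for genes picked without regard to their values. In 12 of them, 9 of these genes, the library was IS replicate 4. The gap to the nearest library, as a share of the group's range, was 0.897 for Mvd, 0.733 for Tm7sf2, 0.822 for Dgat2, 0.742 for Nsdhl, 0.930 for Prelp and 0.889 for Mvk, where it was the highest IS library. It was 0.743 for Tnfaip3, 0.841 for Hsp90b1 and 0.973 for Canx, where it was the lowest. For the first principal component this share was 0.762, for the rank correlation with GC content 0.871 and for that with gene length 0.932. Outside that library, Postn was highest in IS replicate 5 (0.810), Slc27a1 lowest in oxLDL replicate 1 (0.844), Dhcr7 highest in oxLDL replicate 3 (0.748) and Gm6722 highest in oxLDL replicate 4 (0.724). The correlation with GC content was highest in oxLDL replicate 4 among the oxLDL libraries (0.842).

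For 28 of 56 named genes the difference between IS and oxLDL was itself different without and with pNaKtide in edgeR's test of that difference, a share to be read beside 33% of all genes. Given as the log2 fold change without minus that with pNaKtide, it was positive for the sterol genes Mvk (0.79), Mvd (0.72), Tm7sf2 (0.63), Dhcr7 (0.57), Pmvk (0.40) and Nsdhl (0.31), and negative for Insig1 (-0.80). Over the 26 tested genes of the cholesterol list it was positive in 15 and negative in 11, and passed in 11 and 6. It was negative for the ER genes Canx (-0.62), Pdia4 (-0.42), Hsp90b1 (-0.39) and Hyou1 (-0.21), but over the 41 tested genes of the ER list it was positive in 20 and negative in 21, and passed in 7 and 11. In matrix and lipid genes it was -0.72 for Postn, -0.60 for Adamts5, 0.64 for Prelp, 0.28 for Dgat2, 0.38 for Slc27a1, 0.39 for Mgll and -0.63 for Pde3b. It was -0.87 for Ebf2 and -0.46 for Zfp423. For the remaining genes it was -1.15 for Ahr, -0.43 for Cyp1b1, -0.83 for Tnfaip3, -0.36 for Src, 0.48 for Vdr, 0.37 for Arid5a, 0.48 for Insl6 and 0.85 for Gm6722. With the GC content and length offsets 22 of the 56 passed, beside 19.7% of all genes. These 22 held 14 of the 28 genes: Mvk, Mvd, Tm7sf2, Dhcr7, Nsdhl, Insig1, Pdia4, Prelp, Ebf2, Zfp423, Ahr, Tnfaip3, Src and Vdr. The other 14 did not pass with the offsets, and for Pmvk, Hsp90b1, Postn and Dgat2 the sign changed as well. With IS replicate 4 also left out, 13 of the 28 passed, those named except Ebf2.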

How the results depend on the processing

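The count of 0 genes also came from RLE factors, library size alone, filterByExpr, at least 1 count, no robust estimation and an adjusted p of 0.05. It was 47 with DESeq2, 1 with more than 14 counts in every library, 3 with all 30 libraries in the model, 6 with GC content and length offsets, 76 with these and the replicate block, 146 with voom weights, and 1 with either log2(FPKM + 1) or log2(FPKM + 0.1). Leaving out each library gave 0 to 12, with 12 only without IS replicate 4. Without that library it was 118 with the offsets, 90 with DESeq2, 8 with library size alone and 42 with the replicate block. The cause of these differences was not tested. The replicate block alone gave 0, and 2036 genes at an unadjusted p under 0.05 in place of 1003. Replicate numbers were not taken to pair the libraries. Deviations of same-numbered libraries correlated at 0.09, 0.51, -0.14, 0.70 and 0.13. The best-matching oxLDL library had the same number for IS replicates 2 and 4, and another number for replicates 1, 3 and 5. Whether libraries of the same number were handled together was not tested.

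The difference between the contrasts without and with pNaKtide passed in 3818 genes with the offsets and 3099 with these and without IS replicate 4, against 5018 to 7196 with each library left out and 7243 with the block. Of 1557 values of the 56 named genes under 28 settings, 1343 kept their direction and side of the threshold, 213 newly passed it and 1 changed sign, Dcn to 0.030 with the offsets. Of 924 medians of lists, 884 moved by less than the spread between libraries. Genes near or under 1 CPM, such as Slco2b1 and Cxcl1, had few reads in each library, and the effect of depth on them was not tested.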

Other observations

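Of the lists not described above, large groups of genes followed IS replicate 4. The 86 cytosolic ribosomal protein genes stood at a median of 0.16 (log2 fold change) over all 10 libraries and of -0.01 without that library, and 0 of them were higher or lower at an unadjusted p under 0.05 with all libraries. The 59 zinc finger genes Zfp900 to Zfp999 had medians of -0.23 and -0.06, and the 78 nuclear genes of oxidative phosphorylation 0.05 and -0.03. Mitochondrially encoded genes (12 tested) had a median of -0.08 in both. It turned to 0.15 with GC content and length offsets on all 10 libraries, with 10 of 12 values positive. With the offsets and without IS replicate 4 it was -0.02, with 4 values positive and 8 negative. Of 24 immediate early genes, 4 (16.7%) were lower and 0 higher with IS at an unadjusted p under 0.05, beside 2.9% and 2.67% of all genes, with a median of -0.10 that was -0.05 without IS replicate 4. Of 30 cell cycle genes 1 (3.33%) was lower and 0 higher, and of 18 adipokine genes 1 (5.56%) was higher and 0 lower, with 2 (11.1%) lower without IS replicate 4.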
